A study of Mus musculus with 8 samples.

Results

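The mitochondrial ribosomal proteins were followed across the 4 treatment groups of a BMP-2 experiment in C2C12 cells, a mouse myoblast line. The members were all array probes whose annotated gene symbol starts with Mrpl or Mrps followed by a digit, which gave 77 probes for 76 genes among 18138 probes for 16502 genes on the array. Of these, 47 probes carried Mrpl symbols (large subunit) and 30 carried Mrps symbols (small subunit), and only Mrps5 had more than 1 probe. The study asked how dynasore, a small-molecule inhibitor of dynamin and thereby of dynamin-dependent endocytosis, alters the transcriptional response to BMP-2, a bone morphogenetic protein that turns these cells towards the osteoblast fate. RNA was hybridised to Illumina MouseRef-8 v2.0 expression BeadChips, with 1 array for each of 2 biological replicates per group, 8 arrays in all.

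All cells were serum-starved for 4 h, and dynasore or the vehicle DMSO was present from 2 h onwards and during the later 6 h of stimulation. The groups were BMP-2+Dynasore (40 µM dynasore with 30 nM BMP-2), Dynasore (40 µM dynasore without BMP-2), BMP-2+DMSO (0.05% DMSO with 30 nM BMP-2) and DMSO (0.05% DMSO without BMP-2). All groups came from 1 cell line at 1 time point. RNA of whole cultures was measured, so fewer cells carrying a transcript and less of it per cell cannot be told apart.

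The mitochondrial ribosome translates the few mRNAs that mitochondrial DNA encodes, all for subunits of the respiratory chain and the ATP synthase. Its RNAs come from mitochondrial DNA, whereas its proteins are made in the cytosol from nuclear genes and are imported. Part of these proteins have bacterial relatives and part are specific to mitochondria, and the large subunit holds the peptidyl transferase centre while the small subunit binds and decodes the mRNA. Skeletal muscle cells depend on this machinery for their oxidative capacity.

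Between 7454 and 9450 probes were above background per array, and their median intensity lay between 318 and 468. BMP-2+DMSO replicate 2 stood apart: the intensity at which its dim probes peaked was 242, against 3.54 on BMP-2+DMSO replicate 1, 45.3 on BMP-2+Dynasore replicate 2 and between -1.13 and 14.4 on the other arrays. The study's methods leave 1 BMP-2+DMSO array out of the significance test, and the log2 values listed with the study were closest to replicate 2 for 482 of 483 probes. Changes are therefore given first from 7 arrays with BMP-2+DMSO replicate 2, and values with replicate 1 or with all 8 arrays stand beside those that rest on that group. In a fit of 7 arrays BMP-2+DMSO is a single array, so the SEs and p-values of its comparisons contain only the spread between duplicates of the 3 other groups and leave out its own. Comparisons between Dynasore, BMP-2+Dynasore and DMSO use no BMP-2+DMSO array in the group means, although all 8 arrays were quantile normalized together. The myoblast markers Des, Ncam1 and Vcam1 were above background on all 8 arrays, Myod1 on 7 and Myog on 6, while Myf5 was above it on none. Intensities of Myod1, a myogenic master regulator, were 80.9 and 75.4 in BMP-2+Dynasore, 41.8 and 34.4 in Dynasore, 577 and 241 in BMP-2+DMSO and 242 and 234 in DMSO. The 241 on BMP-2+DMSO replicate 2 was not above the background limit of that array, 258, and is therefore no measured level. Of the measured markers of blood, endothelium, epithelium and adipocytes, Cd3e exceeded background on 1 array and the others on none.

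Most mitochondrial ribosomal proteins were expressed. Of the 77 member probes, 69 exceeded background on 2 or more arrays and entered the test, 41 of 47 Mrpl and 28 of 30 Mrps probes, among 10212 probes tested in all. Not tested were Mrpl19, Mrpl21, Mrpl32, Mrpl35, Mrpl39, Mrpl45, Mrps14 and Mrps36. Mrpl39 was above background on 1 array and the other 7 on none. Mrps36 is named for the ribosome but is a component of the 2-oxoglutarate dehydrogenase complex, and Mrpl41 had no probe under its symbol. Members above background numbered 68 and 68 on the BMP-2+Dynasore arrays, 68 and 67 on the Dynasore arrays, 69 and 65 on the BMP-2+DMSO arrays and 69 and 69 on the DMSO arrays.

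In Dynasore relative to DMSO, 20 members fell and 7 rose, by amounts that differed widely between members. The transcript of Mrpl36, a very small protein of the large subunit with a bacterial relative, fell most. The transcript of Mrps18b, a protein of the small subunit, rose most. Here and below a member is said to have risen or fallen when limma's moderated test gave an adjusted p under 0.05, with Benjamini-Hochberg adjustment over all 10212 probes. Changes are differences of log2 normalized intensity, given with their standard error (SE). Members named for the largest changes were chosen among those whose arrays do not overlap between the compared groups. For them the lack of overlap is therefore part of the choice and no further result.

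Of all tested probes, 37.6% were called in Dynasore relative to DMSO, 18.0% higher and 19.6% lower. Of the 69 members, 39.1% were called, a share close to that of all probes. The split by direction was 10.1% higher and 29.0% lower among the members. By subunit, 3 Mrpl members rose and 13 fell of 41, and 4 Mrps members rose and 7 fell of 28. The median change was -0.26 for Mrpl, 0.06 for Mrps and -0.00 for all tested probes. The sign of the Mrps median depended on the scaling, with -0.05 on the authors' values and -0.01 with arrays scaled to equal medians, while the Mrpl median was -0.36 and -0.31 under the same scalings.

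**Figure D1:**
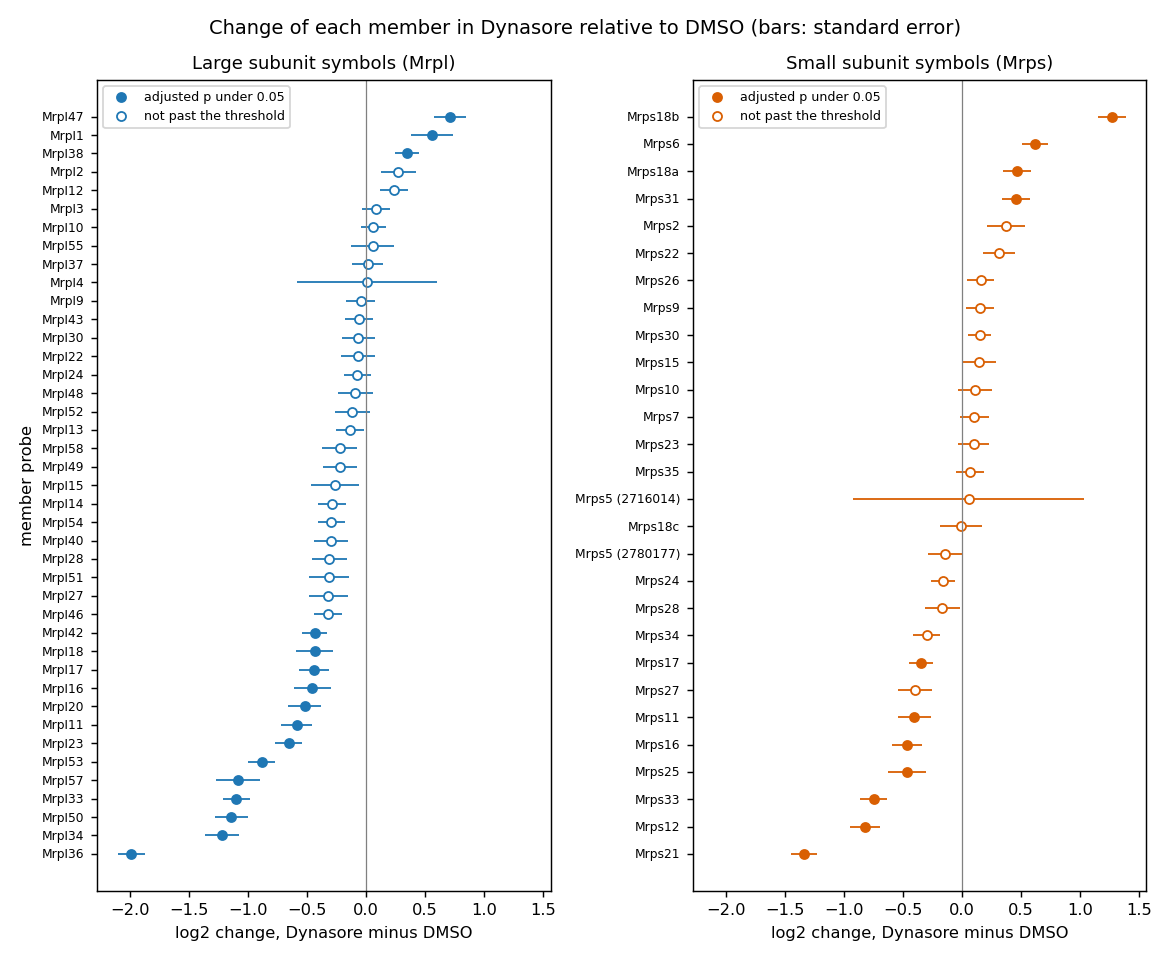
Log2 change of each tested member probe in Dynasore relative to DMSO (x axis, bars show the SE, n = 2 arrays per group), for 41 Mrpl probes on the left and 28 Mrps probes on the right, ordered by change. Filled points passed an adjusted p of 0.05, 3 higher and 13 lower among Mrpl and 4 higher and 7 lower among Mrps, with Mrpl36 at -1.99 and Mrps18b at 1.27 at the ends. Mrpl57 was not above background in Dynasore, so its point marks a fitted value where only a bound can be given.

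Among the large subunit proteins with bacterial relatives, Mrpl36 had log2 signals of 9.10 and 9.02 in Dynasore, against 10.97 and 11.12 in DMSO. In BMP-2+Dynasore it stood at 9.27 and 9.29, and in BMP-2+DMSO at 11.23 and 11.74. All 4 arrays with dynasore lay below all 4 without it. Its change in Dynasore was -1.99 (SE 0.12, adjusted p = 6.51e-07). Mrpl34, another very small protein of this class, gave 9.50 and 9.27 in Dynasore against 10.51 and 10.69 in DMSO, a change of -1.22 (SE 0.14, adjusted p = 8.08e-05). Mrpl33, likewise small, gave 11.992 and 11.997 in Dynasore against 13.17 and 13.02 in DMSO, a change of -1.10 (SE 0.11, adjusted p = 3.01e-05). For both proteins the 2 Dynasore arrays were below the 2 DMSO arrays. With BMP-2 the dynasore arrays of Mrpl34 read 9.29 and 9.56 and those of Mrpl33 read 12.12 and 12.39, again below both DMSO arrays of the same probe.

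Among the mitochondria-specific proteins of the large subunit, Mrpl50 gave 9.24 and 9.53 in Dynasore against 10.54 and 10.51 in DMSO, a change of -1.14 (SE 0.14, adjusted p = 0.000103). Mrpl53 gave 11.25 and 11.19 in Dynasore against 12.02 and 12.18 in DMSO, a change of -0.88 (SE 0.11, adjusted p = 0.000153). Neither probe overlapped between the 2 groups. Mrpl57 was above background on both DMSO arrays and on neither Dynasore array, so only a bound could be given. It was at least 1.38-fold lower in Dynasore (adjusted p = 0.000976). The bright group's mean was set against the lowest signal that counted as above background. Here and below, a p-value beside a bound is that of limma's fitted value and not of the bound.

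In the small subunit, Mrps21, a small protein with a bacterial relative, fell most. Its log2 signals were 9.99 and 9.92 in Dynasore against 11.29 and 11.29 in DMSO, a change of -1.34 (SE 0.11, adjusted p = 5.76e-06), and those in BMP-2+Dynasore were 10.17 and 10.22. As for Mrpl36, every array with dynasore was below every array without it. The same held for other members, among them Mrpl33, Mrpl34, Mrpl50, Mrps12 and Mrps33. Mrps12, whose bacterial relative keeps decoding accurate, gave 10.94 and 10.69 in Dynasore against 11.65 and 11.63 in DMSO, a change of -0.82 (SE 0.13, adjusted p = 0.000478). Mrps33, a small mitochondria-specific protein, gave 11.25 and 11.29 in Dynasore against 12.09 and 11.94 in DMSO, a change of -0.75 (SE 0.11, adjusted p = 0.000458). The groups did not overlap for either. Smaller falls past the threshold were those of Mrps25 (-0.46), Mrps16 (-0.46) and Mrps11 (-0.40), with adjusted p between 0.0155 and 0.0423. The remaining falls were those of Mrpl23 (-0.65), Mrpl11 (-0.59), Mrpl20 (-0.52), Mrpl16 (-0.45), Mrpl17 (-0.44), Mrpl18 (-0.43) and Mrps17 (-0.34), all with bacterial relatives, and of the mitochondria-specific Mrpl42 (-0.43).

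The rises were fewer and lay between 0.35 and 1.27. Mrps18b gave 10.73 and 10.77 in Dynasore against 9.50 and 9.46 in DMSO, a change of 1.27 (SE 0.12, adjusted p = 1.72e-05). In BMP-2+Dynasore it gave 10.80 and 10.59 and in BMP-2+DMSO 9.63 and 9.13, so all 4 dynasore arrays lay above the 4 others. The same held for Mrps6 and Mrps31. Mrps18b is 1 of a set of paralogs related to bacterial S18. Its paralog Mrps18a, which sits in the large subunit in ribosome structures despite its symbol, rose by 0.47 (SE 0.12, adjusted p = 0.00985), with 11.01 and 10.78 in Dynasore against 10.45 and 10.40 in DMSO. The third paralog, Mrps18c, which occupies the position of the bacterial protein, gave 9.74 and 9.98 in Dynasore against 10.06 and 9.68 in DMSO. The Mrps18c groups overlapped and its change was -0.01 (SE 0.18, adjusted p = 0.987).

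The other members that rose in Dynasore were Mrpl47, a large subunit protein near the exit of the polypeptide tunnel (0.72, SE 0.13, adjusted p = 0.00168), Mrps6, which has a bacterial relative (0.62, SE 0.11, adjusted p = 0.00119), Mrpl1, of the mobile stalk that releases tRNA (0.56, SE 0.18, adjusted p = 0.0297), the mitochondria-specific Mrps31 (0.46, SE 0.12, adjusted p = 0.0106) and the mitochondria-specific Mrpl38 (0.35, SE 0.10, adjusted p = 0.0186). For each of them both Dynasore arrays were above both DMSO arrays, as their choice required. Just inside the threshold stood Mrpl18 at -0.43 (adjusted p = 0.0499) and just outside it Mrps27 at -0.40 (adjusted p = 0.058). Mrps30, also a large subunit protein by structure, gave 11.90 and 11.93 in Dynasore against 11.78 and 11.74 in DMSO, and Mrpl12, a stalk protein that also binds the mitochondrial RNA polymerase, gave 11.46 and 11.53 against 11.13 and 11.39. Neither passed the test, with changes of 0.15 (SE 0.10, adjusted p = 0.27) and 0.24 (SE 0.12, adjusted p = 0.153).

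**Figure D2:**
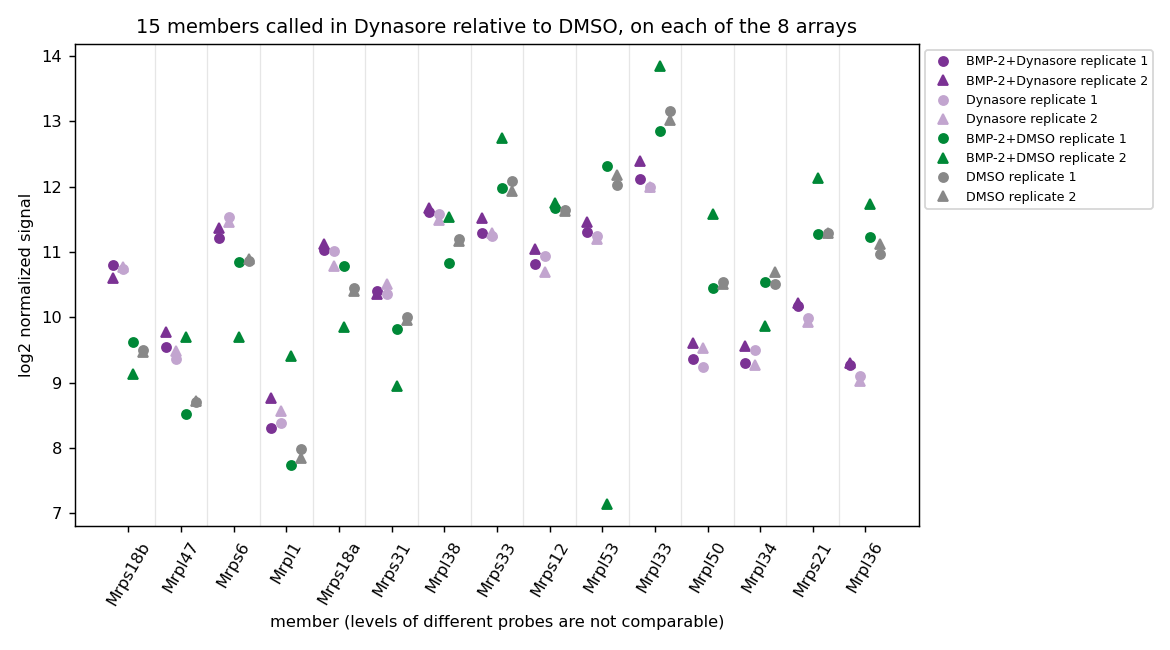
Log2 normalized signal (y axis) of 15 members called in Dynasore relative to DMSO, on each of the 8 arrays, with circles for replicate 1 and triangles for replicate 2. For Mrpl33, Mrpl34, Mrpl36, Mrpl50, Mrps12, Mrps21 and Mrps33 the 4 arrays with dynasore lie below the 4 without it. For Mrps6, Mrps18b and Mrps31 they lie above them. BMP-2+DMSO replicate 2 lies far from replicate 1 for several members, as for Mrpl53 with 7.13 against 12.32.

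Of the 27 calls, 12 kept their direction and an adjusted p under 0.05 in each of 17 other settings of scaling, background treatment, filter, model and left-out array on 7 or fewer arrays with no fold limit. These were the falls of Mrpl23, Mrpl33, Mrpl34, Mrpl36, Mrpl50, Mrpl53, Mrps12, Mrps21 and Mrps33 and the rises of Mrpl47, Mrps6 and Mrps18b. The calls of Mrpl1, Mrpl38, Mrps11, Mrps16 and Mrps25 were lost when any single DMSO or Dynasore array was left out (adjusted p between 0.0631 and 0.256). The Mrps18a call was lost without Dynasore replicate 1 or DMSO replicate 2 (0.133 and 0.0705), and the Mrps31 call without either DMSO array or Dynasore replicate 2 (between 0.0542 and 0.131). Exchanging the BMP-2+DMSO arrays, which is among the 17 settings, gave 27 called members again, with 37.5% of all probes called. In the fit, a lone array of that group adds nothing to this change or to the spread between duplicates, so this setting could hardly differ. When all 8 arrays were fitted together, the SEs included the spread between the BMP-2+DMSO arrays (0.23 for Mrpl36), and 3.22% of all probes were called. Of the members, Mrpl36 (adjusted p = 0.0102) and Mrps18b (adjusted p = 0.0453) then stayed past the threshold, while Mrps21 had an adjusted p of 0.0683.

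Promoters are shown for the 3 members with the largest changes in Dynasore, because many nuclear genes for mitochondrial proteins are known to share sites for NRF1, GABPA and YY1. Each is the RefSeq sequence (GRCm38.p6) from 250 bases before to 50 bases after the annotated start, on the gene's strand, 5′ to 3′, with motif matches in capitals. The motifs searched on both strands were GCATGCGC for NRF1, CCGGAAG for GABPA and other ETS factors, and AANATGGC for YY1, which do not overlap one another in these windows.
Mrpl36, chr13:73330759-73331058, plus strand, a YY1 match 30 bases before the start: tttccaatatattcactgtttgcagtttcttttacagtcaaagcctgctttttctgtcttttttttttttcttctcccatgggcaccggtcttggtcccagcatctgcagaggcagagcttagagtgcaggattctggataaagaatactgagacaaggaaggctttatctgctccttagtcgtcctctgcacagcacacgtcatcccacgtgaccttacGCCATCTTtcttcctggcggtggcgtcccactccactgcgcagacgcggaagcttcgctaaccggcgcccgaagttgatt
Mrps21, chr3:95871465-95871764, minus strand, a GABPA/ETS match after the start: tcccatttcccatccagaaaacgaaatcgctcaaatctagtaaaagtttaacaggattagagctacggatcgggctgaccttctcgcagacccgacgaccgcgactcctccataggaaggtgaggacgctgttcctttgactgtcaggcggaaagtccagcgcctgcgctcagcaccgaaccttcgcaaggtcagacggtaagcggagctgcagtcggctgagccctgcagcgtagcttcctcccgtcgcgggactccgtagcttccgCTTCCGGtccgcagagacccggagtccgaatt
Mrps18b, chr17:35916391-35916690, minus strand, an NRF1 match on either side of the start and a GABPA/ETS match after it: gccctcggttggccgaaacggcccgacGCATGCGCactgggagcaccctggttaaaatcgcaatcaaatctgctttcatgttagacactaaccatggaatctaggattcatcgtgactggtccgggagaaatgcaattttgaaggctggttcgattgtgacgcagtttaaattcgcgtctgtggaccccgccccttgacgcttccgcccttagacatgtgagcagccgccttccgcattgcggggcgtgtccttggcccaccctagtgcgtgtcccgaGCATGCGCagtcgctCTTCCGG

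Of the 76 member genes, 67 had a promoter entry, 73 promoters in all. Of these, 57.5% held at least 1 of the motifs, against 16.1% of all 32851 promoters of the same length. By motif the shares were 11.0% of member promoters and 2.71% of all for NRF1, 35.6% and 8.86% for GABPA/ETS, and 28.8% and 6.05% for YY1. Among members that fell in Dynasore 14 of 21 promoters held a motif, among those that rose 3 of 6, among those not called 21 of 39 and among those not tested 4 of 7. These matches describe the letters in the window and were set against no measure of binding.

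The large and small subunits were next compared array by array, as the median of Mrpl members minus the median of Mrps members after the mean of the DMSO arrays had been taken off each probe. This difference was -0.20 and -0.15 on the BMP-2+Dynasore arrays, -0.25 and -0.26 on the Dynasore arrays, -0.01 and 0.17 on the BMP-2+DMSO arrays and 0.03 and -0.03 on the DMSO arrays. The 4 dynasore arrays were below the 4 others. Of these others, the DMSO arrays are themselves the reference, so their values have equal size and opposite sign by construction. BMP-2+DMSO replicate 2 is the array whose dim probes stood apart. The Mrpl medians themselves were -0.17 and -0.07 in BMP-2+Dynasore and -0.16 and -0.25 in Dynasore, and the Mrps medians were 0.02 and 0.09 in BMP-2+Dynasore and 0.09 and 0.00 in Dynasore. These medians are a description of the members and carry no test.

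**Figure D3:**
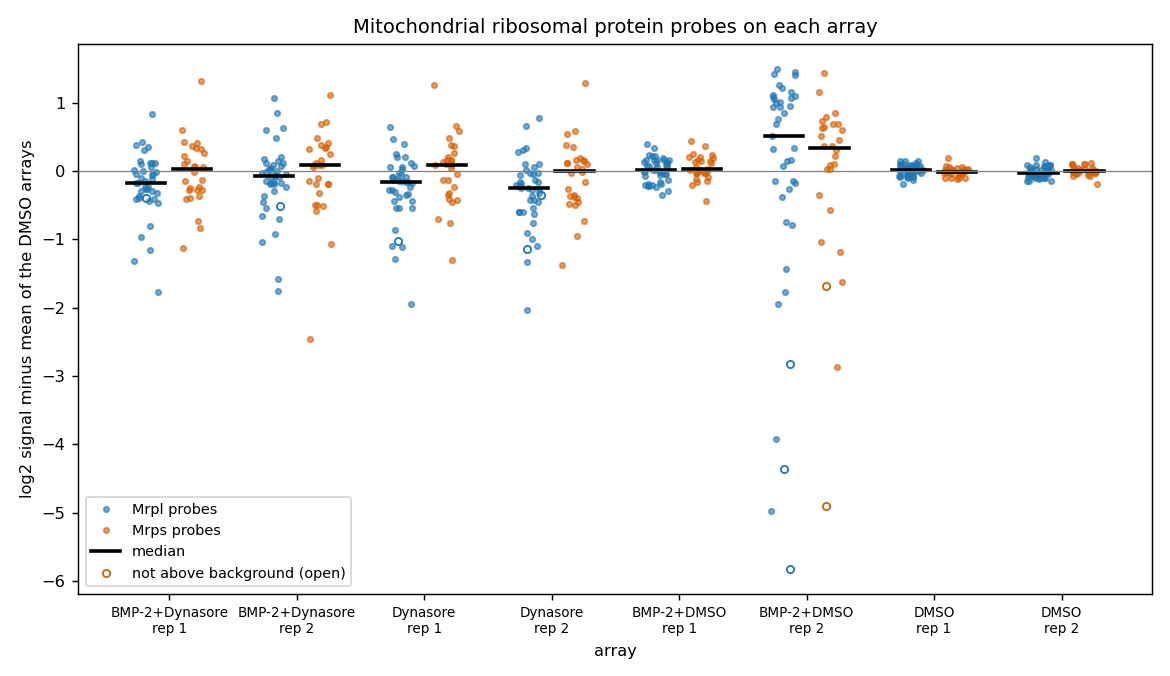
Log2 signal of each tested member minus the mean of the 2 DMSO arrays (y axis), for Mrpl (blue) and Mrps (orange) probes on each array, with a bar at the median. Open points are probes not above background on that array, 5 of them on BMP-2+DMSO replicate 2, where their height has no measured value. Members above background spread between -2.03 and 1.29 on Dynasore replicate 2 and between -4.97 and 1.49 on BMP-2+DMSO replicate 2, with -0.44 to 0.43 on BMP-2+DMSO replicate 1.

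Placing proteins by their position in ribosome structures instead of by symbol moved Mrps18a and Mrps30 to the large subunit and left out Mrps36. Of the 43 large subunit members tested, 4 rose and 13 fell in Dynasore, and of the 26 small subunit members 3 rose and 7 fell, with medians of -0.22 and 0.03. Large subunit proteins with bacterial relatives held 2 rises and 9 falls among 26, and those specific to mitochondria held 2 rises and 4 falls among 17. In the small subunit the counts were 1 rise and 5 falls among 16 probes of bacterial type and 2 rises and 2 falls among 10 specific ones. Mrps18a and Mrps18b were counted as specific here, although they are paralogs related to bacterial S18. Each class held calls in both directions, where 18.0% of all tested probes were called higher and 19.6% lower. No class was tested against these shares.

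With both agents, BMP-2+Dynasore relative to DMSO, 10 members rose and 12 fell. Of all tested probes 38.6% were called, 19.6% higher and 19.0% lower, and of the members 31.9%. By subunit, 4 Mrpl members rose and 7 fell, and 6 Mrps members rose and 5 fell, with medians of -0.10 and -0.01. The leading members were Mrpl36 (-1.76, SE 0.12, adjusted p = 1.45e-06), Mrpl34 (-1.17, SE 0.14), Mrps21 (-1.10, SE 0.11), Mrps12 (-0.71, SE 0.13), Mrps18b (1.22, SE 0.12, adjusted p = 2.13e-05), Mrpl47 (0.96, SE 0.13), Mrps18a (0.65, SE 0.12) and Mrpl1 (0.62, SE 0.18, adjusted p = 0.0184). Members called here and also in Dynasore numbered 18, 7 higher and 11 lower in both. That was 81.8% of the calls in BMP-2+Dynasore and 66.7% of the calls in Dynasore, and both comparisons use the same DMSO arrays. The overlap over all tested probes was not counted, so these shares say nothing about the members in particular. Called in BMP-2+Dynasore alone were Mrpl2, Mrps2 and Mrps22, which rose, and Mrps34, which fell. Mrpl2 and Mrps2 have bacterial relatives, and Mrps22 and Mrps34 are specific to mitochondria. Of the 22 calls, 12 were kept in each of the 17 settings named above. The Mrpl1 call was lost without either DMSO array or without BMP-2+Dynasore replicate 2. With all 8 arrays, where 3.56% of all probes were called, Mrpl36 (adjusted p = 0.0148) and Mrps18b (adjusted p = 0.0473) stayed past the threshold.

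The response to BMP-2 in the presence of dynasore was asked by setting BMP-2+Dynasore against Dynasore. No member passed limma's test, with 0.872% of all probes called, 0.646% higher and 0.225% lower. At an unadjusted p under 0.05, 7 members were higher and 1 was lower, where 11.0% of all probes passed, 6.47% higher and 4.51% lower. Mrpl36 gave 9.27 and 9.29 in BMP-2+Dynasore against 9.10 and 9.02 in Dynasore, a difference of 0.22 (SE 0.12, adjusted p = 0.518), and Mrps18b gave 10.80 and 10.59 against 10.73 and 10.77, a difference of -0.05 (SE 0.12, adjusted p = 0.894). Arrays of the 2 groups were separate for Mrpl36 and overlapped for Mrps18b. When BMP-2+Dynasore replicate 1 was left out, 8 members passed, 6 higher and 2 lower, with 16.1% of all probes called, 6.77% higher and 9.33% lower. BMP-2+Dynasore was then a single array, whose spread was taken to be that of the other groups.

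The response to BMP-2 in vehicle differed between the 2 BMP-2+DMSO arrays. On replicate 1, members lay between -0.44 and 0.43 of the DMSO mean, and none moved by more than 0.5. On replicate 2, 14 of the 69 members lay more than 1 below and 32 more than 0.5 above the DMSO mean, and for all tested probes the shares were 20.5% and 40.3%. With both arrays in the fit no member was called (0.206% of all probes), and 4 members passed an unadjusted p of 0.05 (7.38% of all probes). With replicate 1 alone no member was called (4.59% of all probes), and 6 passed an unadjusted p of 0.05 (13.3% of all probes). With replicate 2 alone, 35 members were called higher and 18 lower than DMSO, with 69.7% of all probes called, 41.4% higher and 28.2% lower. These calls describe 1 array against DMSO, with the spread taken from the other groups. The duplicates of BMP-2+DMSO themselves differed by an SD of 1.66 over the members, which this test does not contain.

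The falls on replicate 2 included members of both subunits. Of those measured above background on that array, Mrpl53 gave 12.32 and 7.13 in BMP-2+DMSO against 12.02 and 12.18 in DMSO, a change of -4.97 (SE 0.14, adjusted p = 1.5e-09) with replicate 2. Mrpl9, which has a bacterial relative, gave 11.42 and 7.70 in BMP-2+DMSO against 11.57 and 11.68 in DMSO, a change of -3.92 (SE 0.15). Mrps11, whose bacterial relative lines the mRNA path, gave 9.54 and 6.69 in BMP-2+DMSO against 9.50 and 9.60 in DMSO, a change of -2.86 (SE 0.17). For all 3, replicate 1 lay near the DMSO arrays and replicate 2 far below them. On replicate 2 the intensities of Mrps11 (259) and Mrpl53 (266) stood close to the background limit of that array, 258. The sizes of these 2 falls therefore rest on signals near the limit.

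Another 5 member probes were not above background on replicate 2, so only bounds could be given there, and these have no order among themselves. The p-values beside the bounds are those of the fitted values. Mrpl11, of the GTPase-associated centre, gave 10.14 and 4.24 on the BMP-2+DMSO arrays against 10.01 and 10.10 in DMSO, at least 11.0-fold lower on replicate 2 (adjusted p = 1.5e-09). Mrpl4, whose bacterial relative lines the polypeptide tunnel, was at least 12.3-fold lower on replicate 2 (adjusted p = 0.00925). The bounds were 3.67-fold for Mrpl18 and 2.93-fold for Mrps27. The other was 1 of the 2 probes of Mrps5, a protein at the mRNA entrance. This probe, ILMN_2716014, gave 9.92 and 4.79 in BMP-2+DMSO against 9.76 and 9.63 in DMSO, at least 8.52-fold lower on replicate 2 (adjusted p = 0.0331). The other probe of Mrps5, ILMN_2780177, was above background with 8.61 and 6.99 in BMP-2+DMSO against 8.52 and 8.71 in DMSO, a change of -1.62 (SE 0.18, adjusted p = 2.24e-05) with replicate 2. The intensity of ILMN_2780177 on replicate 2 was 263, also close to the background limit of 258. In Dynasore relative to DMSO neither Mrps5 probe passed, with changes of 0.06 (SE 0.98) and -0.14 (SE 0.14).

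Among members higher on replicate 2, Mrpl1 gave 7.73 and 9.41 in BMP-2+DMSO against 7.99 and 7.84 in DMSO, a change of 1.49 (SE 0.22) with replicate 2 and -0.18 (SE 0.22) with replicate 1. Mrpl27, whose bacterial relative reaches into the peptidyl transferase centre, changed by 1.45 (SE 0.20) with replicate 2 and by -0.02 (SE 0.21) with replicate 1. The corresponding values were 1.43 (SE 0.18) and 0.43 (SE 0.18) for Mrps28 and 1.15 (SE 0.22) and 0.25 (SE 0.22) for Mrps18c. Over all 69 members the sign of the change differed between the 2 arrays for 32, and for 27 of the 53 called with replicate 2.

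**Figure D4:**
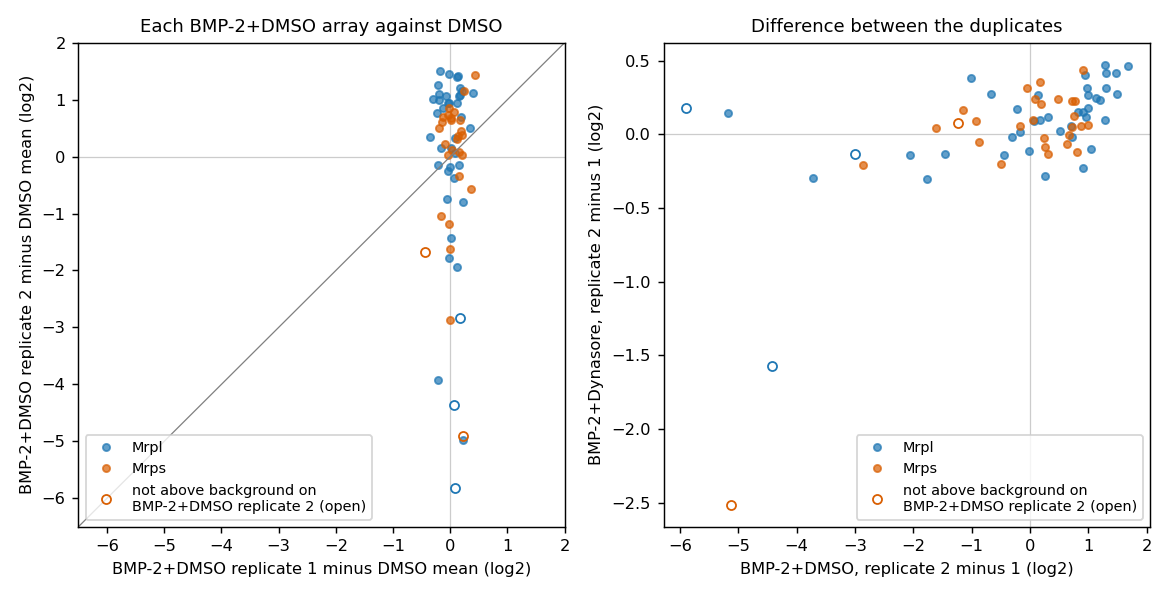
Left, each tested member on BMP-2+DMSO replicate 2 (y axis) and replicate 1 (x axis), both as log2 difference from the DMSO mean, with the line of equality. Right, replicate 2 minus replicate 1 in BMP-2+Dynasore (y axis) and in BMP-2+DMSO (x axis), where 1 Mrps and 1 Mrpl probe, Mrps5 ILMN_2716014 and Mrpl4, are low on replicate 2 of both groups. Open points are the 5 probes not above background on BMP-2+DMSO replicate 2.

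Members differed between replicates with an SD of 0.419 in BMP-2+Dynasore, 0.166 in Dynasore, 1.66 in BMP-2+DMSO and 0.154 in DMSO (replicate 2 minus replicate 1, n = 69 probes). Over all tested probes the SDs were 0.437, 0.216, 1.44 and 0.226 in the same order of groups. Differences over 1 were found for 2.90% of members in BMP-2+Dynasore and 34.8% in BMP-2+DMSO, and for no member in Dynasore or DMSO. The shares of all tested probes were 3.28% in BMP-2+Dynasore, 42.9% in BMP-2+DMSO, 0.108% in Dynasore and 0.118% in DMSO. Outside BMP-2+DMSO the members' shares were close to these. In BMP-2+DMSO the members' share was lower while their SD was larger than that of all probes. The 2 members concerned in BMP-2+Dynasore were low on replicate 2, Mrps5 ILMN_2716014 with 9.75 and 7.24, and Mrpl4 with 10.22 and 8.64. In BMP-2+DMSO these probes gave 9.92 and 4.79, and 10.29 and 5.86, where replicate 2 was not above background for either, so it was the lower array in both groups by an amount that has no measured value in BMP-2+DMSO. Over the 69 members the replicate differences of BMP-2+Dynasore and BMP-2+DMSO correlated with a Pearson r of 0.57 and a Spearman rho of 0.51, and over all tested probes with r = 0.50. The points of this correlation share arrays, 5 member probes in it were not above background on BMP-2+DMSO replicate 2, and BMP-2+Dynasore replicate 2 also had the second highest peak of dim probes. What part either array has in these values was not tested.

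The effect of dynasore in BMP-2-treated cells was read from BMP-2+Dynasore against BMP-2+DMSO. With both BMP-2+DMSO arrays, 1 member was higher and 2 were lower in BMP-2+Dynasore (3.60% of all probes called, 1.76% higher and 1.84% lower). Against replicate 2 alone, 17 were called higher and 32 lower (67.4% of all probes, 28.9% and 38.5% by direction), and against replicate 1 alone 8 were called higher and 12 lower (29.1% of all probes, 15.6% and 13.5%). In both of these fits the BMP-2+DMSO arm was 1 array and the spread came from the other groups. Mrpl36, Mrps21 and Mrps18b were called in all 3 fits. The difference for Mrpl36 was -2.45 (SE 0.14) with replicate 2, -1.95 (SE 0.14) with replicate 1 and -2.20 (SE 0.23, adjusted p = 0.00802) with both. Mrps21 differed by -1.94 (SE 0.13), -1.07 (SE 0.13) and -1.51 (SE 0.29, adjusted p = 0.0476) in the same fits, and Mrps18b by 1.57 (SE 0.15), 1.07 (SE 0.15) and 1.32 (SE 0.24, adjusted p = 0.0376).

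For 29 of the 69 members the sign of the difference turned with the choice of array, among them 18 of the 49 called against replicate 2. Mrpl53 was higher in BMP-2+Dynasore by 4.24 (SE 0.14) with replicate 2 and differed by -0.94 (SE 0.13, adjusted p = 0.000532) with replicate 1, where it was lower. Mrpl11 gave at least 8.76-fold higher values in BMP-2+Dynasore with replicate 2 (adjusted p = 2.24e-09) and a change of -0.41 (SE 0.15, adjusted p = 0.0707) with replicate 1. Mrps11 changed by 2.48 (SE 0.17) and by -0.38 (SE 0.16) in these fits. On BMP-2+DMSO replicate 2 both Mrps11 and Mrpl53 stood close to the background limit. Mrps6, Mrpl50 and Mrps33 kept their direction, with 1.59 and 0.44 for Mrps6, -2.09 and -0.96 for Mrpl50, and -1.35 and -0.58 for Mrps33, each past the threshold with either array.

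Whether the response to BMP-2 depended on dynasore was tested by the interaction, the BMP-2 response with dynasore minus the BMP-2 response with DMSO. With both BMP-2+DMSO arrays no member passed (0% of all probes), also at an unadjusted p of 0.05 (2.22% of all probes). With replicate 1 alone no member passed (1.10% of all probes), and 4 did at an unadjusted p of 0.05 (10.9% of all probes). With replicate 2 alone 44 passed, 16 positive and 28 negative (56.3% of all probes called, 23.3% positive and 33.0% negative). Again BMP-2+DMSO was then 1 array, with the spread borrowed from the other groups.

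The other proteins and factors of mitochondrial translation were followed in the same comparisons. Of 4 ribosomal proteins with other symbols, Chchd1 fell in Dynasore (-0.51, SE 0.10, adjusted p = 0.00224), with 12.28 and 12.17 in Dynasore against 12.75 and 12.72 in DMSO. The GTP-binding protein Dap3 (0.02, SE 0.11) and the RNA-binding protein Ptcd3 (-0.07, SE 0.19, above background on 1 of 2 Dynasore arrays) did not pass. Gadd45gip1 was above background on 1 of 2 DMSO arrays and on neither Dynasore array, so no size of its change can be given. It did not pass limma's test either (adjusted p = 0.111). Of 21 probes for ribosome assembly factors, 1 rose and 4 fell. Those with the largest changes were Mterf4 (-1.14, SE 0.14), which recruits the rRNA methyltransferase Nsun4, Mrm3 (-0.85, SE 0.21), which methylates the large rRNA, and Nsun4 itself (-0.77, SE 0.14). The Mrm3 call was lost without Dynasore replicate 1 or DMSO replicate 2 (adjusted p = 0.103 each).

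Of 12 translation factors, 2 rose and 1 fell, the release factor Mtrf1l (0.66, SE 0.16), Lrpprc (0.58, SE 0.18) and Slirp (-0.49, SE 0.14). Lrpprc and Slirp form a complex that stabilises mitochondrial mRNAs, and their changes had opposite signs. The Lrpprc call was lost when any single DMSO or Dynasore array was left out, with adjusted p between 0.0672 and 0.175, the Slirp call without DMSO replicate 1 or Dynasore replicate 1 (0.172 and 0.163), and the Mtrf1l call without Dynasore replicate 1 or DMSO replicate 2 (between 0.0731 and 0.0787). Of 11 probes for expression and replication of mitochondrial DNA, 3 rose and 3 fell. Both probes of the transcription termination factor Mterf1a fell (-1.08, SE 0.16, and -0.84, SE 0.14), and the topoisomerase Top1mt rose (0.95, SE 0.15).

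Of 6 regulators of mitochondrial biogenesis, 3 rose and 1 fell. The coactivator Ppargc1b gave 6.61 and 6.38 in Dynasore against 8.12 and 8.25 in DMSO, a change of -1.69 (SE 0.16, adjusted p = 2.21e-05). The transcription factor Myc gave 7.73 and 7.67 in Dynasore against 5.90 and 6.21 in DMSO, where replicate 1 was not above background. Its fitted rise rests in part on that array, and was 1.65 (SE 0.46, adjusted p = 0.0436). It no longer passed when any 1 DMSO or Dynasore array was left out (adjusted p between 0.131 and 0.203). Gabpa, the DNA-binding factor of the GABPA motif above, gave 7.16 and 7.28 in Dynasore against 6.15 and 6.31 in DMSO, a rise of 0.99 (SE 0.16, adjusted p = 0.00071). For all 3 genes the 2 groups did not overlap.

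**Figure D5:**
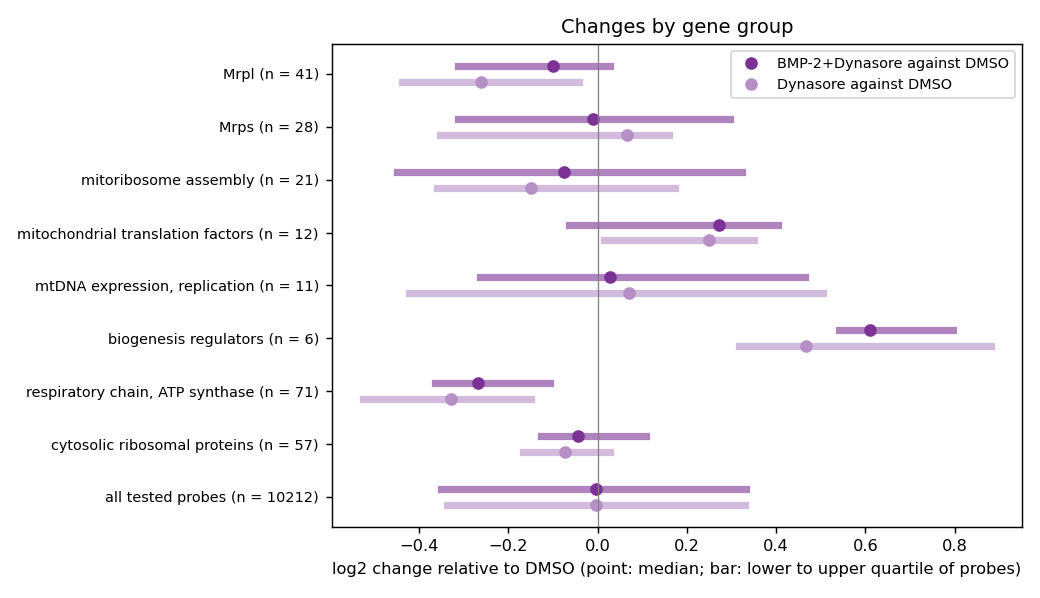
Median log2 change relative to DMSO (points) and the lower to upper quartile over probes (bars) of the member probes and related gene groups, in BMP-2+Dynasore (dark) and Dynasore (light), which share the DMSO arrays. The respiratory chain group has medians of -0.27 and -0.33, the cytosolic ribosomal proteins -0.04 and -0.07, and all tested probes lie at -0.00 in both.

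The cytosolic ribosome and the respiratory chain were set beside the members as neighbouring functions. Of 57 probes for cytosolic ribosomal proteins, none rose and 2 fell in Dynasore, with a median of -0.07. These were Rpl38 (-0.26, adjusted p = 0.0317) and Rps27 (-0.22, adjusted p = 0.0497), and both calls were lost when any single DMSO or Dynasore array was left out (adjusted p between 0.0646 and 0.271). Of 71 probes for the respiratory chain and ATP synthase, 2 rose and 32 fell, with a median of -0.33. The largest changes were those of the complex I subunits Ndufb3 (-1.27, SE 0.12) and Ndufa3 (-1.06, SE 0.13) and of Cox6a2, a muscle form of a cytochrome c oxidase subunit that was above background on 1 of 2 DMSO arrays (1.10, SE 0.21). The members lay between these groups in the share called, with 3.51% for the cytosolic ribosomal proteins, 39.1% for the members and 47.9% for the respiratory chain, against 37.6% of all probes. These shares are descriptions of lists chosen with earlier results known, and no difference between the lists was tested. Many cytosolic ribosomal probes were among the brightest on the arrays, such as Rplp1 with a log2 signal of 15.75 or 15.83 on every array. Whether changes can be seen as well at such signals was not tested.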

How the data were processed

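Total RNA of C2C12 cells was measured on 8 arrays of Illumina MouseRef-8 v2.0 BeadChips. The authors deposited intensities per probe on a linear scale, which BeadStudio 3.0 had put through rank invariant normalization, and 6 arrays hold values below 0, so a background had been subtracted. A second table, before normalization and with detection p-values, has 16 numbered columns that could not be tied to samples and was not used. Lists of genes that the study supplies were used only to identify the array its methods kept.

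Intensities were corrected with normexp (offset 16), quantile normalized over 8 arrays and put on the log2 scale. Background ended at the peak of the dim probes plus 1.645 SD of their lower side, and probes above it on 2 or more arrays were tested. Groups were fitted together with lmFit and eBayes (trend and robust; limma 3.58.1, R 4.3.3), with 3 residual degrees of freedom on 7 arrays, with Benjamini-Hochberg adjustment within each comparison. Other scalings, background treatments, filters, model options, choices of BMP-2+DMSO array, a replicate block, a fold limit and single left-out arrays were tried. The fitting was tested on simulated data. The members and lists were chosen with earlier results of these data known. Named were, in Dynasore against DMSO, up to 6 rises and 6 falls of each subunit with the largest change past the threshold and arrays that do not overlap (2 in each other comparison), members placed differently by structure or with several probes, ribosomal proteins with other symbols, and up to 3 called genes of each other list. Other members at a threshold, below background, low on BMP-2+DMSO replicate 2 or in a count of few were named after their values were seen. Probe symbols were those of the platform annotation, where 16886 probes had 1 symbol and 1252 none, and all 76 member genes matched RefSeq by gene identifier. The number of arrays limits the precision.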

Additional observations from a re-analysis of the deposited data

Results flagged for a closer look

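The interaction, the BMP-2 response with dynasore minus the BMP-2 response with DMSO, was past limma's test for 44 member probes with BMP-2+DMSO replicate 2 as the only array of its group, so that the spread came from the other groups, and for none with replicate 1 in its place or with all 8 arrays. The values below are log2, with replicate 2, then with replicate 1, then with all 8 arrays. Among positive interactions these were 5.13, -0.06 and 2.54 for Mrpl53, and 2.88, 0.02 and 1.45 for Mrps11. Both members stood close to the background limit on BMP-2+DMSO replicate 2. Mrpl11 and Mrps27 were not above background on BMP-2+DMSO replicate 2, so values that include this array are bounds. For these, the array's signal was set to the lowest that counted as above background, while the p-values are those of the fitted values. The interactions were at least 3.72, then 0.18, then at least 1.95 for Mrpl11, and at least 1.59, then 0.48, then at least 1.04 for Mrps27. Among negative ones they were -1.44, 0.24 and -0.60 for Mrpl1, and -1.39, 0.08 and -0.65 for Mrpl27. They were -1.21, -0.30 and -0.76 for Mrps18c, and -1.18, -0.18 and -0.68 for Mrps28. Adjusted p-values lay between 1.66e-08 and 0.00586 with replicate 2 and between 0.495 and 0.978 with replicate 1, and were 0.906 with all 8 arrays.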

How the results depend on the processing

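Counts of called members depended most on the BMP-2+DMSO arrays. The counts in this section stand without the share of all probes called in the same setting. A shift in a count can therefore be one of the whole array and says nothing about the members in particular. With all 8 arrays the counts were 2 in Dynasore against DMSO, 0 in BMP-2+DMSO against DMSO, 2 in BMP-2+Dynasore against DMSO, 3 in BMP-2+Dynasore against BMP-2+DMSO and 0 in the interaction. With replicate 1 in place of replicate 2 they were 0 in BMP-2+DMSO against DMSO, 20 in BMP-2+Dynasore against BMP-2+DMSO and 0 in the interaction, and 27 and 22 in the comparisons of Dynasore and BMP-2+Dynasore with DMSO. Under that exchange the sign turned for 32 of 69 members in BMP-2+DMSO against DMSO, 29 in BMP-2+Dynasore against BMP-2+DMSO and 40 in the interaction. Among the members named for each comparison these were, in BMP-2+DMSO against DMSO, Mrpl1 (-0.18), Mrpl11 (0.0813), Mrpl27 (-0.0224), Mrpl53 (0.22) and Mrps5 ILMN_2716014 (0.23), in BMP-2+Dynasore against BMP-2+DMSO Mrpl11 (-0.41), Mrpl53 (-0.94) and Mrps11 (-0.38), and in the interaction Mrpl1 (0.24), Mrpl27 (0.0824) and Mrpl53 (-0.0579). The cause was not tested. Arrays scaled to equal medians left 13 calls in BMP-2+Dynasore against DMSO. A fold limit of 1.4 left 16 in Dynasore and 13 in BMP-2+Dynasore against DMSO by construction, and the methods' one-way test with that limit called 21 and 13. With single arrays left out, where the lone array of a group was taken to vary like the other groups, the counts ranged from 14 to 36 in Dynasore, 48 to 56 in BMP-2+DMSO and 12 to 27 in BMP-2+Dynasore against DMSO, from 0 to 8 in BMP-2+Dynasore against Dynasore, from 47 to 52 in BMP-2+Dynasore against BMP-2+DMSO and from 35 to 49 in the interaction. Those that moved a count by over 1.5 times were DMSO replicate 1 (16 in Dynasore, 14 in BMP-2+Dynasore), DMSO replicate 2 (15 and 12), Dynasore replicate 2 (14 in Dynasore) and BMP-2+Dynasore replicate 1 (8 against Dynasore). Without either BMP-2+DMSO array, an alternative chosen after the data were seen, the counts in Dynasore and BMP-2+Dynasore against DMSO were 27 and 22, and without BMP-2+Dynasore replicate 2 as well they were 37 and 25.

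Scaling moved the split of higher and lower calls, which was 4 and 28 on the authors' values and 3 and 19 at equal medians in Dynasore against DMSO (7 and 20 otherwise), 4 and 9 at equal medians in BMP-2+Dynasore against DMSO, 20 and 24 at equal medians in BMP-2+Dynasore against BMP-2+DMSO, and 19 and 21 or 20 and 14 in the interaction. The median of all probes in BMP-2+DMSO against DMSO was 0.22, 0.82 on the authors' values and -0.04 at equal medians, and in BMP-2+Dynasore against DMSO it was 0.16 on the authors' values. Same-numbered arrays did not deviate together in every pair of groups (r over all probes between -0.28 and 0.50), so the numbers were not taken to pair the samples. With a replicate block the counts were 24 in Dynasore, 48 in BMP-2+DMSO and 20 in BMP-2+Dynasore against DMSO, 0 in BMP-2+Dynasore against Dynasore, 47 against BMP-2+DMSO and 38 in the interaction. The 8 dim members had no measurable change at this signal.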
